A study of Mus musculus with 6 samples.

Results

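The genes of cholesterol synthesis and of its control by the sterol regulatory element-binding proteins (SREBPs) were followed in mouse blood progenitors with and without added Hhex, a homeobox transcription factor of the blood and endothelial lineages. The group holds 31 genes, taken by symbol for their known place in the pathway. All 31 are among the 12161 genes of the deposited table. They comprise 7 genes of the early mevalonate steps, 11 of the squalene and sterol steps, 5 of SREBP control, 4 of cholesterol uptake, trafficking and storage, and 4 of fatty acid synthesis.

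LSK cells, the bone marrow fraction that lacks lineage markers, carries Sca1 and Kit, and holds blood stem and early progenitor cells, were sorted from C57BL/6 mice. They were transduced on retronectin-coated plates with the retrovirus MIG (genotype label wild-type) or MIG-Hhex (genotype label Hhex). After culture for 2 days with mIL-6 and a factor spelled mL-3 in the labels at 10 ng/mL each, and mSCF and mFlt-3 at 50 ng/mL each, GFP-positive cells were sorted for RNA. Each vector has 3 biological replicates, WT3, WT691 and WT703. Both groups thus share strain, transduction, cytokines and the sort for GFP. In MIG-Hhex cells Hhex comes from the vector in addition to the cell's own gene, while no label used here states the mice's age or how many were pooled per library. Both WT3 libraries ran on flow cell C3RJFACXX and the other 4 on C5LWPANXX.

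Cells build cholesterol from acetyl-CoA through mevalonate, isoprenoids, squalene and lanosterol. When membranes of the endoplasmic reticulum are poor in sterol, the escort protein SCAP carries SREBPs to the Golgi, where proteases release the part that enters the nucleus. SREBP2 mainly drives cholesterol genes, including its own gene and Insig1, and SREBP1 mainly drives fatty acid genes. INSIG proteins close the loop by holding SCAP back when sterol is plentiful.

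With MIG-Hhex, Insig1, Srebf2 and Scd2 rose by about the same amount, between 1.25-fold and 1.29-fold, while Idi1 fell 1.17-fold. The other 27 members did not pass the test (limma adjusted p at or above 0.05), among them all 11 enzymes from squalene synthase to 7-dehydrocholesterol reductase. The 3 rises are 9.68% of the members, against 9.44% of all genes called higher, and the single fall is 3.23% of the members, against 8.52% of all genes called lower. The share of members that rose is thus near the background. With the trend on transcript GC content removed the rises were unequal, at 0.46 for Insig1, 0.36 for Scd2 and 0.12 for Srebf2 on the log2 scale. Srebf2 and Idi1 (−0.05) then missed the threshold (limma adjusted p = 0.114 and 0.565), and Idi1 also missed it in all 9 runs that left out a replicate or a library. The median log2 fold change of the members was 0.05, against −0.02 for all genes.

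**Figure D1:**
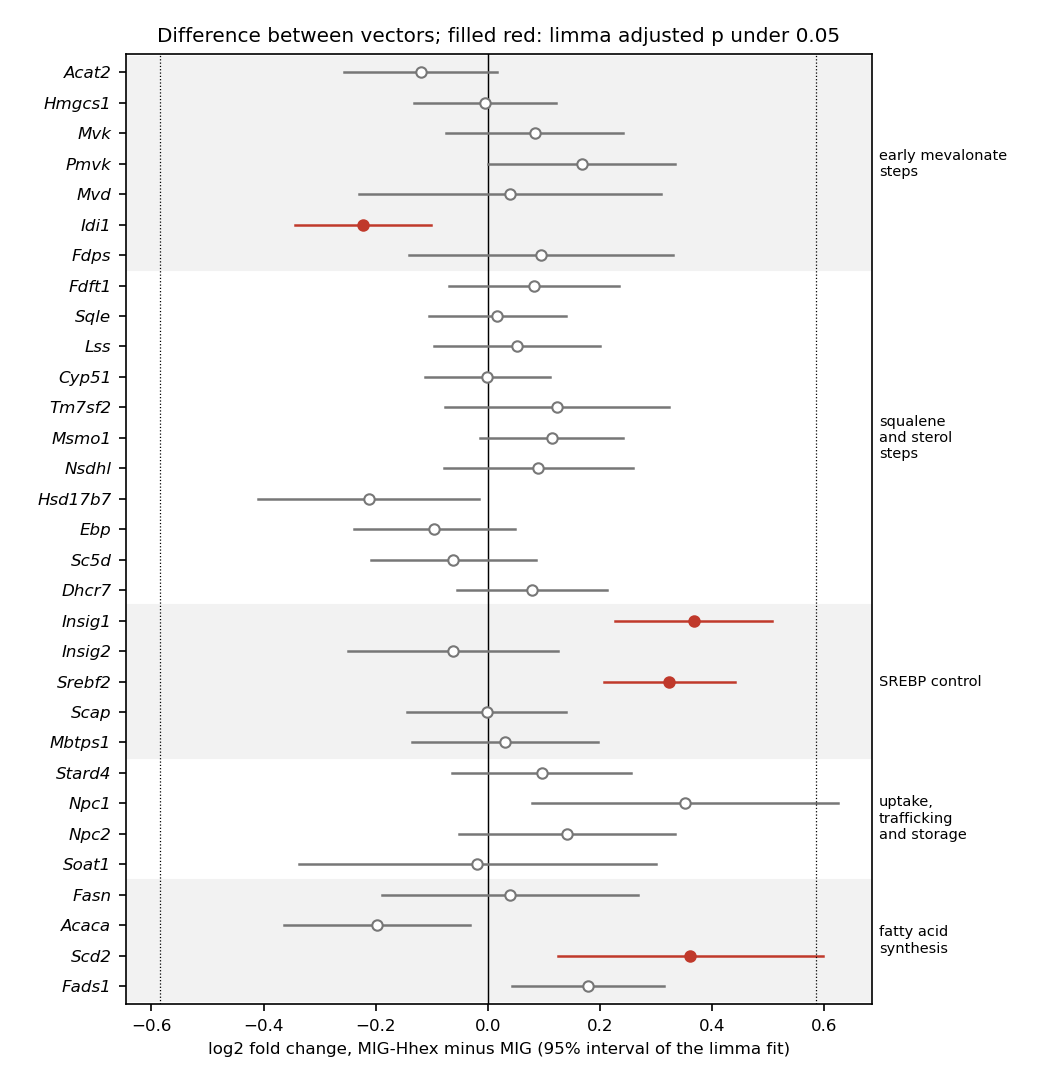
Log2 fold change of the 31 genes, MIG-Hhex minus MIG (x axis), with the 95% interval of the limma fit as bars. Filled red points mark the 4 genes past the threshold, and dotted lines mark a 1.5-fold change; Insig1 lies at 0.37, Srebf2 at 0.32, Scd2 at 0.36 and Idi1 at −0.22.

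The label check and the makeup of the libraries bear on every value below. Hhex itself went from a log2 level of 5.12 ± 0.07 to 8.67 ± 0.93 (SD, n = 3 each), a fitted difference of 3.55 ± 0.32 (SE; adjusted p = 0.00189 by limma). The values are log2 levels per gene length with library medians between 3.56 and 3.60, and the depth behind them is unknown. The LSK marker Kit was at 4.73 ± 0.12 with MIG and 4.56 ± 0.19 with MIG-Hhex (SD, n = 3 each). Ly6a, the gene of Sca1, was at 3.18 and 3.55 in the WT3 libraries and between 5.89 and 6.25 in the other 4. Of 10 stem and progenitor genes 0 were higher (0 at an unadjusted p) and 1 lower, Meis1 (−0.79, limma adjusted p = 0.0107). Of the same 10 genes 8 were lower in all 3 pairs, against 32.8% of all genes. Their summed linear levels were 424 to 512 in MIG and 345 to 452 in MIG-Hhex. Over all genes 9.44% were called higher and 8.52% lower, and no marker count here was tested against these shares. Genes of the neutrophil lineage ranged widely, with MIG means from 2.13 for Cxcr2 and 2.69 for Ltf to 10.11 for Elane and 10.96 for Mpo. Mpo was lower with MIG-Hhex, at 8.79, 8.39 and 6.32 in WT3, WT691 and WT703. Of 10 neutrophil genes 5 were higher with MIG-Hhex, Ngp by 2.08, Cxcr2 by 2.03, Camp by 1.36, S100a9 by 1.12 and Ltf by 0.54. In the other direction 2 were lower, Mpo by 3.12 and Mmp8 by 1.94. The summed linear level of the 10 genes ran from 6336 to 7984 in MIG and from 5264 to 7808 in MIG-Hhex. Of 8 macrophage and dendritic cell genes 3 were higher and 1 lower (sums 269 to 718 and 274 to 823), and of 5 mast cell and basophil genes 0 were higher and 3 lower (192 to 372 and 105 to 166; 1 higher at an unadjusted p). Of 6 erythroid genes 3 were higher and 0 lower (11.7 to 32.4 and 26.4 to 46.1; 1 lower at an unadjusted p), with Hba-a1, a globin gene that has a near-identical copy, higher by 3.77, and of 5 megakaryocyte genes 2 were higher and 1 lower (60.5 to 87.4 and 68.6 to 89.0). Of 5 proliferation genes 1 was higher, Top2a by 0.34 (569.8 to 729 and 596 to 828), and of 3 measured T and NK cell genes 1 was higher. Of 5 B cell genes, 1 was measured, Cd79b. The part of cell makeup in the pathway's values was not tested, and in such bulk RNA a change in the share of a cell type cannot be told apart from a change of RNA per cell.

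Promoter sequence is shown for 4 genes: Insig1 and Srebf2, which rose, Idi1, which fell, and Hmgcs1, which holds the sterol regulatory element form searched for. RefSeq gave a promoter window (250 bases before and 50 after the start site, GRCm38.p6) for 24 of the 31 members. Scd2, which also rose, had no window, nor had Fdps, Fdft1, Sqle, Stard4, Npc1 and Fads1, so these were not searched. The sequences below are the 250 bases before the start, 5′ to 3′ on the gene's strand, which is the plus strand for all 4: chr5:28071162-28071411 for Insig1, chr15:82147019-82147268 for Srebf2, chr13:8885356-8885605 for Idi1 and chr13:119690101-119690350 for Hmgcs1. Capitals mark CCAAT, the box of the NF-Y factor, or its reverse complement ATTGG, and in Hmgcs1 also TCACNCCAC.

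Insig1: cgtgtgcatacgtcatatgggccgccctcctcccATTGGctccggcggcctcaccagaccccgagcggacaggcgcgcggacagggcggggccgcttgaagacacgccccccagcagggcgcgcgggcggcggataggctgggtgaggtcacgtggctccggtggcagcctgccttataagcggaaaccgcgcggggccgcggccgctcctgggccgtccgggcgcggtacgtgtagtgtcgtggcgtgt

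Srebf2: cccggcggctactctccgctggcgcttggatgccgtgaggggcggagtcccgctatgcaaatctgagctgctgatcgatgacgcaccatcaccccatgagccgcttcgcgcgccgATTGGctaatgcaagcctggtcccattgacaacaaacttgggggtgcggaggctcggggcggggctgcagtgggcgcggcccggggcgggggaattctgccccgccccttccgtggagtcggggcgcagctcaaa

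Idi1: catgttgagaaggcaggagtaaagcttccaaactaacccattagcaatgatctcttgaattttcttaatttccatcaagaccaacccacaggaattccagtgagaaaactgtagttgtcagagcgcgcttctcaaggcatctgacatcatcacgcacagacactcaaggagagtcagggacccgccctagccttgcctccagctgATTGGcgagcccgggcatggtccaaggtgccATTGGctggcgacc

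Hmgcs1: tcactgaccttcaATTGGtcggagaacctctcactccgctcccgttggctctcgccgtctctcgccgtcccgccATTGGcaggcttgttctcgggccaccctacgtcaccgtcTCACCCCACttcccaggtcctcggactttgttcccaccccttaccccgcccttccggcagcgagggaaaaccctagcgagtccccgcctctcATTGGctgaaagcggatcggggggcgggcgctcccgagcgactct

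CCAAT, on either strand, was present in 20 of the 24 members with a window (83.3%), against 43.2% of the 9699 genes of the table with one. The Sp1 box GGGCGG was present in 21 of 24 (87.5%), against 68.7%. TCACNCCAC, which was searched on both strands, was found in 1 member, Hmgcs1, whose match starts at position −137 from the start site, and in 1.35% of all genes. The E-box form TCACGTGA was found in 0 of 24 members and in 2.27% of all genes. No motif of the 4 contains another, and a gene with several windows counted once. A match is a description of letters in the window. The search took these exact letters only and missed near matches, such as tcaccccat in Srebf2, which differs from TCACNCCAC in its last letter. A window without a match may thus still hold a site for SREBPs. In the printed sequences CCAAT or its reverse complement stands once in Insig1 and Srebf2, at positions −216 and −135. In Idi1 it starts at −45 and −14.

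Srebf2, the gene of SREBP2 (Entrez 20788, chromosome 15, 82147269 to 82205379, GRCm38), was higher in every MIG-Hhex library. In the order WT3, WT691 and WT703, used for all values that follow, its log2 levels were 6.07, 6.29 and 6.25 with MIG and 6.38, 6.63 and 6.56 with MIG-Hhex. The groups did not overlap. The differences within the pairs were 0.32, 0.35 and 0.31, the narrowest range of the 4 genes called, and the fitted rise was 0.32 (SE 0.05, 1.25-fold, limma adjusted p = 0.0085). With replicate WT703 left out it was 0.33 and missed the threshold (limma adjusted p = 0.0628). Srebf2 has a transcript GC content of 57.1%, and with the trend on GC removed its difference was 0.12 (limma adjusted p = 0.114).

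Insig1 (Entrez 231070, chromosome 5, 28071412 to 28078662), which retains SCAP in the endoplasmic reticulum and is itself an SREBP target, moved by nearly the same amount. Its levels were 5.93, 5.86 and 5.78 with MIG and 6.24, 6.28 and 6.16 with MIG-Hhex. Again no MIG-Hhex library lay as low as any MIG library. The rise was 0.37 (SE 0.06, 1.29-fold, limma adjusted p = 0.0101), with pair differences of 0.31, 0.42 and 0.38. Leaving out replicate WT703 gave 0.36 and ended the call (limma adjusted p = 0.0591), and the rise was 0.46 with the GC trend removed (limma adjusted p = 0.00622; transcript GC 47.1%).

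Its paralogue Insig2, which acts in the same way on SCAP, had levels of 3.42, 3.25 and 3.16 with MIG and 3.26, 3.16 and 3.23 with MIG-Hhex. These groups overlapped (log2 difference −0.06, 95% interval −0.25 to 0.13, limma adjusted p = 0.618). On the per-length scale Insig2 lay far below Insig1, with a mean over the 6 libraries of 3.25 against 6.04. Scap, the escort protein, was at 4.59, 4.66 and 4.71 with MIG and at 4.68, 4.67 and 4.61 with MIG-Hhex. Mbtps1, the site-1 protease that makes the first cut in SREBPs, ran from 4.96 to 5.22 with MIG and from 5.10 to 5.20 with MIG-Hhex. Neither differed past the threshold, with intervals of −0.14 to 0.14 for Scap and −0.13 to 0.20 for Mbtps1.

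**Figure D2:**
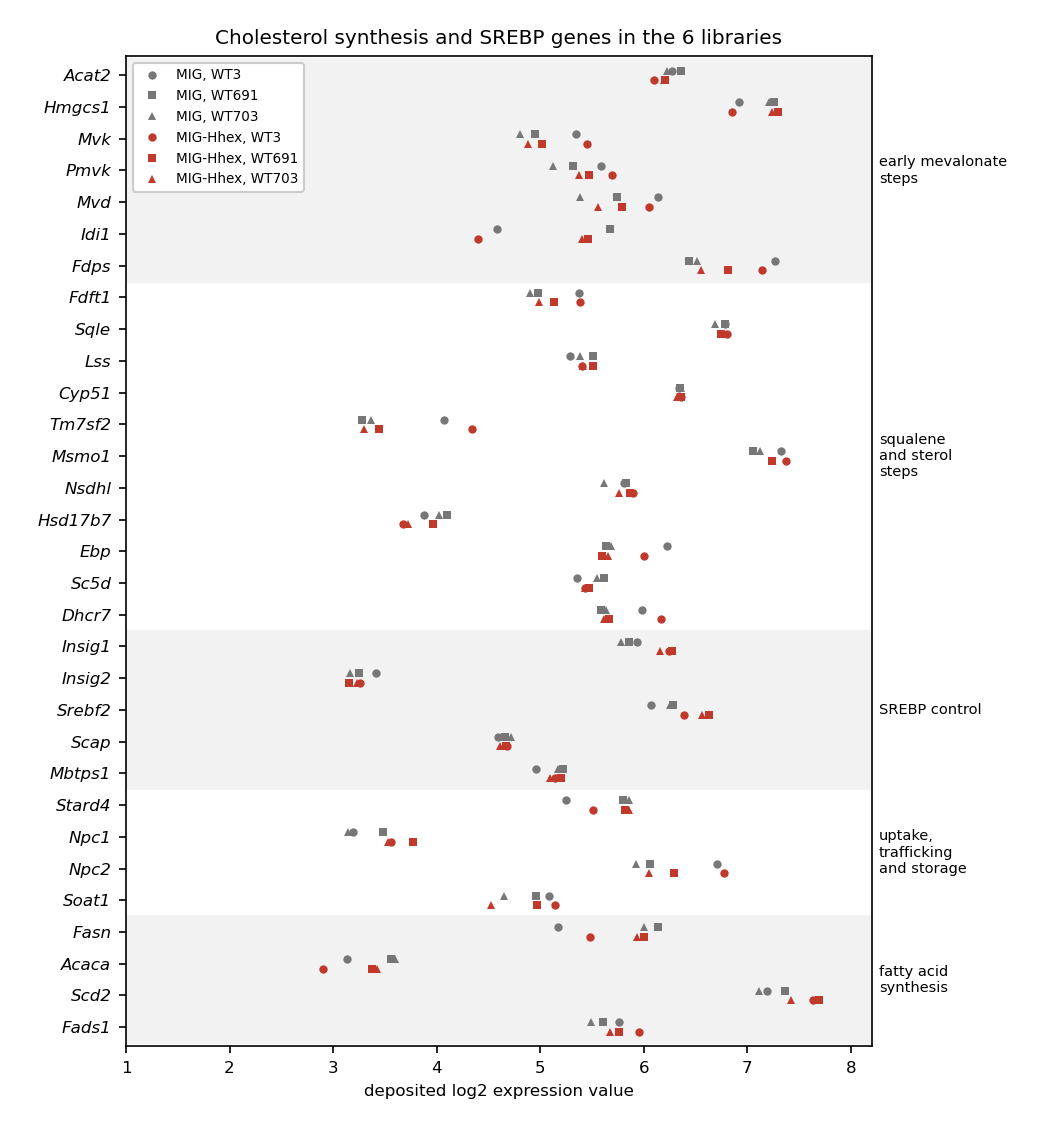
Deposited log2 value (x axis) of each of the 31 genes in each library; grey is MIG, red is MIG-Hhex, and the symbol shape gives the replicate. Red points lie to the right of all grey points for Insig1, Srebf2, Npc1 and Scd2 and to the left for Acat2, while Idi1 lies apart by replicate, with WT3 lowest.

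Among the early mevalonate enzymes, Idi1 (Entrez 319554, chromosome 13, 8885606 to 8892396), the isomerase that makes dimethylallyl diphosphate, passed the test and fell. Its levels were 4.58, 5.68 and 5.67 with MIG and 4.40, 5.46 and 5.40 with MIG-Hhex. The groups overlapped because both WT3 libraries were lowest, but the MIG-Hhex library was the lower one in each pair, by −0.18, −0.21 and −0.27. The fitted change was −0.22 (SE 0.05, limma adjusted p = 0.0294). It missed the threshold in each of 9 runs that left out a replicate or a library (limma adjusted p from 0.0719 to 0.16), and with the GC trend removed it was −0.05 (limma adjusted p = 0.565, transcript GC 41.1%). Among the left-out runs, those without replicate WT3 or either of its libraries gave the same difference and are not separate tests.

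The remaining 6 enzymes of these steps did not pass. Hmgcs1, the HMG-CoA synthase, stood at 6.92, 7.26 and 7.21 with MIG and at 6.85, 7.29 and 7.23 with MIG-Hhex, so that each library lay close to its partner (−0.0043, interval −0.13 to 0.12). Acat2, which joins 2 acetyl-CoA units, had its 3 MIG-Hhex libraries, at 6.10, 6.21 and 6.20, below its MIG libraries at 6.28, 6.36 and 6.22. That difference of −0.12 did not pass (limma adjusted p = 0.193). Mvk, the mevalonate kinase, and Pmvk, which adds the next phosphate, were higher in all 3 pairs, by 0.07 to 0.11 and by 0.10 to 0.25, without passing (adjusted p = 0.408 and 0.144 by limma). Mvd, the decarboxylase, and Fdps, the farnesyl diphosphate synthase, changed sign between pairs. Fdps differed by −0.13 in pair WT3, 0.38 in pair WT691 and 0.04 in pair WT703.

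None of the 11 squalene and sterol enzymes passed in either direction by limma, and at an unadjusted p below the threshold there were 0 higher and 1 lower. Over all genes 9.44% were called higher and 8.52% lower, and no test was made of the count of 0 among 11. The median log2 fold change of the 11 enzymes was 0.05, and the values ran from −0.21 to 0.12. Cyp51, the lanosterol demethylase, varied least: 6.34, 6.35 and 6.36 with MIG against 6.36, 6.36 and 6.32 with MIG-Hhex. Its 95% interval was −0.11 to 0.11. Sqle, the squalene epoxidase and a rate-controlling step, was at 6.79, 6.79 and 6.69 against 6.80, 6.75 and 6.77 (interval −0.11 to 0.14). For both genes the groups overlapped, and in the main fit the difference was small beside those of Insig1 and Srebf2. With the GC trend removed this held beside Insig1 (0.46) but not for Cyp51 beside Srebf2, at 0.11 and 0.12. Sqle was then at 0.06.

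Fdft1, the squalene synthase, differed by 0.08 and Lss, the lanosterol synthase, by 0.05. Msmo1, the C4 sterol methyl oxidase and one of the highest members, stood at 7.33, 7.05 and 7.12 with MIG and 7.37, 7.24 and 7.24 with MIG-Hhex. The difference of 0.11 (limma adjusted p = 0.183) became 0.26 and passed once the GC trend was removed (limma adjusted p = 0.0291). Its partner in the removal of the C4 methyl groups, Nsdhl, differed by 0.09, and Tm7sf2, a sterol C14 reductase, by 0.12. Toward the end of the pathway, Ebp, the sterol isomerase, differed by −0.10, Sc5d, the desaturase, by −0.06 and Dhcr7, the last reductase, by 0.08.

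Hsd17b7, the 3-ketosteroid reductase of the C4 demethylation, was the sterol enzyme with the lowest unadjusted p. It was at 3.87, 4.10 and 4.02 with MIG and at 3.68, 3.96 and 3.72 with MIG-Hhex. Each MIG-Hhex library lay below its partner, but the groups overlapped (−0.21, SE 0.08, interval −0.41 to −0.02, limma adjusted p = 0.123).

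**Figure D3:**
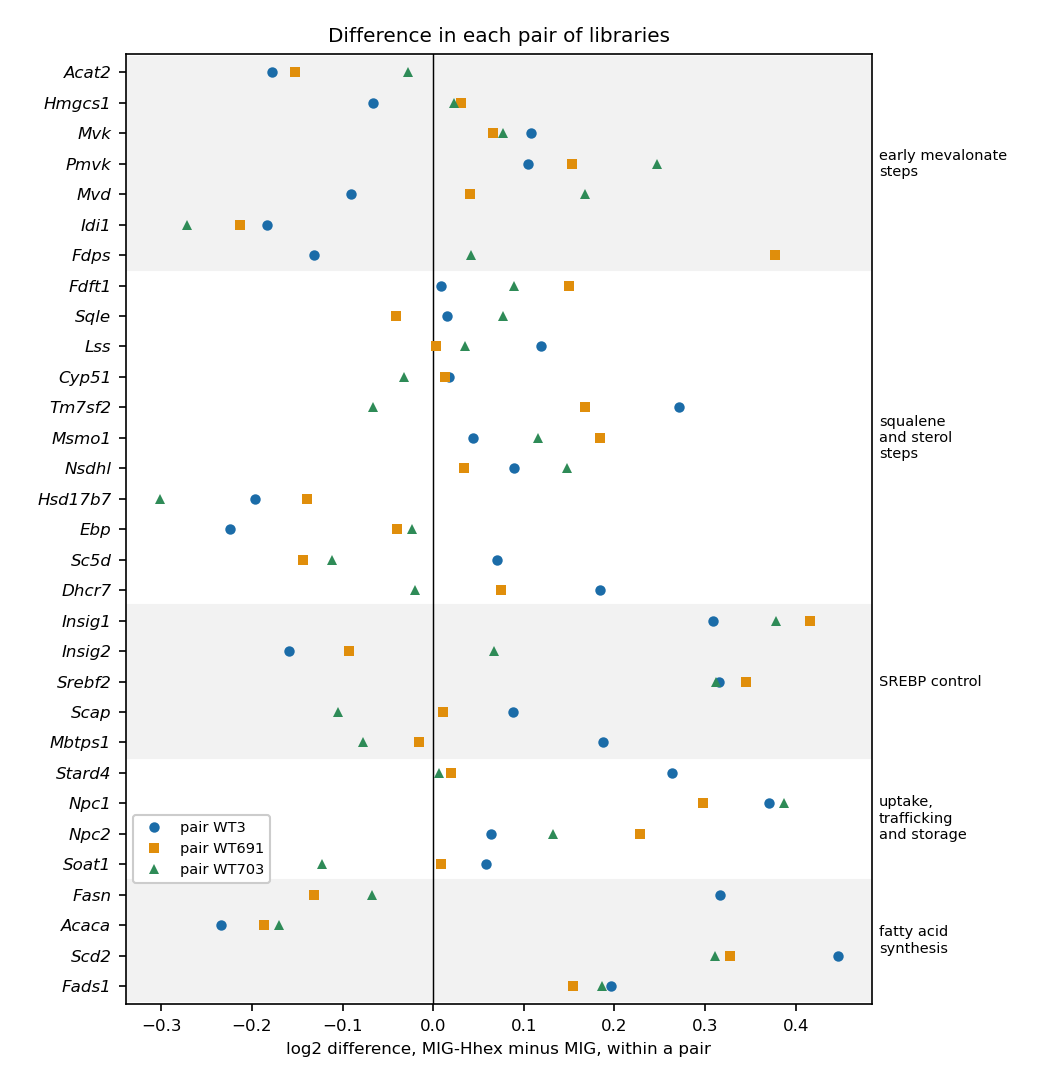
Log2 difference between the MIG-Hhex and the MIG library of each pair (x axis) for the 31 genes; symbols give the replicate. All 3 points lie right of 0 for 13 genes and left of 0 for 5; Srebf2 has its points at 0.31, 0.32 and 0.35, and Fasn and Fdps have points on both sides.

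Within pairs, 13 of the 31 members (41.9%) were higher with MIG-Hhex in all 3, against 27.5% of all genes. In the other direction 5 members (16.1%) were lower in all 3 pairs, against 32.8% of all genes. Groups that did not overlap were rarer: MIG-Hhex lay wholly above MIG for 4 members (12.9%, against 10.2% of all genes), namely Insig1, Srebf2, Npc1 and Scd2. It lay wholly below for 1 member, Acat2 (3.23%, against 11.0%). No test was made of these shares, and the 31 genes are not independent of each other.

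Of the genes of uptake, trafficking and storage, Npc1, which moves cholesterol out of lysosomes, had the widest difference. It stood at 3.19, 3.48 and 3.14 with MIG and at 3.56, 3.78 and 3.53 with MIG-Hhex, without overlap. The difference of 0.35 (SE 0.11, 1.28-fold) missed the threshold (limma adjusted p = 0.0794). With the replicate name as a block it passed (limma adjusted p = 0.0156), as it did with the GC trend removed (0.45, limma adjusted p = 0.0392).

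Npc2, the soluble lysosomal partner that hands cholesterol to NPC1, was higher in each pair, by 0.06, 0.23 and 0.13, but its fitted difference of 0.14 did not pass (limma adjusted p = 0.26). Its levels followed the replicate more than the vector: 6.71 and 6.78 in the pair of WT3 and 5.92 to 6.29 in the other 4 libraries. Stard4, a sterol carrier of the cytosol, differed by 0.26 in pair WT3 and by 0.02 and 0.01 in the other pairs (fitted 0.10; 0.22 and past the threshold with the GC trend removed, limma adjusted p = 0.0401). Soat1, the enzyme that esterifies cholesterol for storage, ran from 4.65 to 5.08 with MIG and from 4.53 to 5.14 with MIG-Hhex. Its interval, −0.34 to 0.30, was among the widest.

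Of the 4 fatty acid genes 1 rose, 0 fell and 3 did not pass (2 higher and 1 lower at an unadjusted p). Over all genes 9.44% were called higher and 8.52% lower, and 4 genes are too few to set against these shares. Scd2 (Entrez 20250, chromosome 19, 44293676 to 44306864), a stearoyl-CoA desaturase and the highest member by level, was at 7.19, 7.37 and 7.11 with MIG and at 7.64, 7.69 and 7.43 with MIG-Hhex. The groups did not overlap, and the rise of 0.36 (SE 0.10, 1.29-fold) lay just inside the threshold (limma adjusted p = 0.0498). Its call was lost in 6 of 9 left-out runs: without replicate WT3 or either of its libraries, without replicate WT703 or its MIG library, and without the MIG-Hhex library of WT691 (limma adjusted p from 0.0601 to 0.191, differences from 0.30 to 0.39). The runs without replicate WT3 or either of its libraries are 1 comparison, since the flow cell term takes up a lone WT3 library. With the replicate block it stood at a limma adjusted p of 0.0061.

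Fads1, the delta-5 desaturase, was at 5.76, 5.61 and 5.49 with MIG and at 5.96, 5.76 and 5.67 with MIG-Hhex, higher in each pair by 0.15 to 0.20. The difference of 0.18 (SE 0.06) did not pass (limma adjusted p = 0.0764) but did with the replicate block (limma adjusted p = 0.0333). Acaca, the acetyl-CoA carboxylase that commits carbon to fatty acids, was lower in each pair, by −0.23, −0.19 and −0.17, but missed the threshold (adjusted p = 0.0976 by limma). Fasn, the fatty acid synthase, was higher in pair WT3 by 0.32 and lower in the other pairs, by −0.13 and −0.07.

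With the replicate block, 5 members were higher and 1 lower in place of 3 and 1, the added genes being Npc1 and Fads1. In that fit the shares were 16.1% and 3.23% of the members, against 12.4% of all genes higher and 12.1% lower, so that calls were more frequent over all genes too. Without a flow cell term 0 members were called in either direction by limma (4 higher and 0 lower at an unadjusted p). For the 27 members that did not pass, the interval of the difference stayed within a 1.3-fold change in either direction for 25 and within 1.5-fold for 26. Npc1 is the exception to the latter. A 1.3-fold limit by itself does not exclude changes of the size called, from 1.17-fold for Idi1 to 1.29-fold for Insig1.

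**Figure D4:**
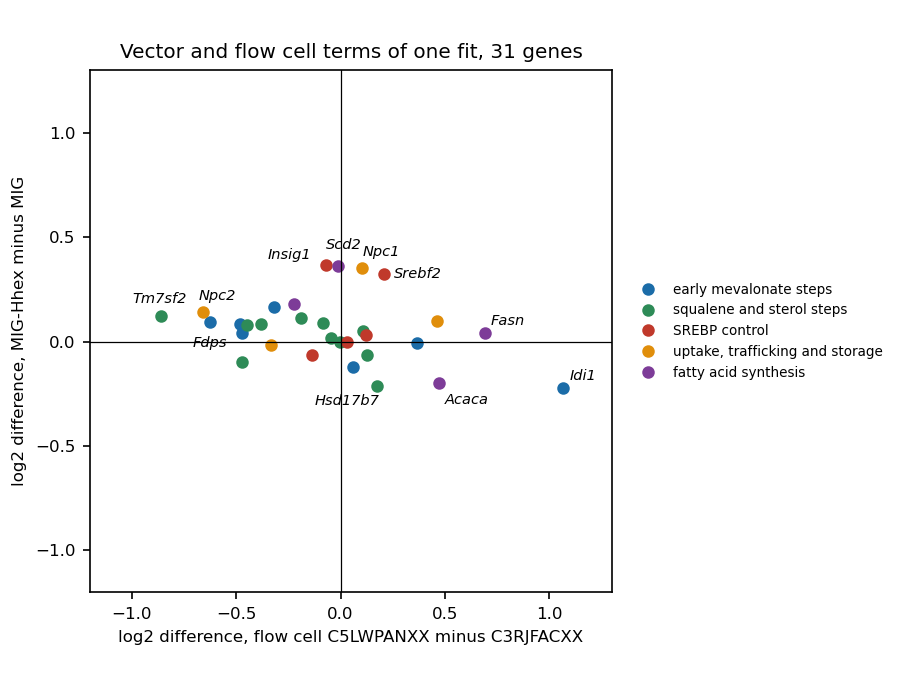
Difference between vectors (y axis) against the difference between flow cells (x axis) for the 31 genes, both in log2 units from the same fit, with colours for the role groups. Idi1 lies at 1.07 between flow cells and −0.22 between vectors, and Insig1 at −0.07 and 0.37.

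Between the flow cells 17 of the 31 members (54.8%) differed past the threshold, against 46.6% of all genes, 6 higher and 11 lower on C5LWPANXX. The median size of the difference was 0.22 between flow cells and 0.10 between vectors, against 0.32 and 0.17 for all genes. Idi1 was 1.07 higher on C5LWPANXX and Fasn 0.69 higher, while Tm7sf2 was 0.86, Npc2 0.66 and Fdps 0.63 lower. Insig1 and Scd2 differed little, by −0.07 and −0.01. Since 1 replicate alone ran on C3RJFACXX, the flow cell and replicate WT3 cannot be told apart. The test takes both WT3 libraries as independent although they are partners, so its p-values are too small and the contrast is unreplicated on that side.

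By level per length, 28 of the 31 members lay above the median gene of the table. Scd2 (mean over the 6 libraries 7.40), Msmo1 (7.23) and Hmgcs1 (7.13) were highest, followed by Fdps (6.79) and Sqle (6.76). The lowest were Insig2 (3.25), Acaca (3.33), Npc1 (3.45), Tm7sf2 (3.63) and Hsd17b7 (3.89). Neighbours in this order, such as Fdps and Sqle, differ by less than the spread of Fdps over libraries (SD 0.46 with MIG).

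Other genes of the pathway, 60 measured of 62 listed, gave 9 higher and 6 lower, with a median log2 fold change of 0.03. These are 15% and 10.0% of them, against 9.44% and 8.52% of all genes. With the replicate block the counts were 14 and 8 (23.3% and 13.3%, against 12.4% and 12.1%). Not all of the genes counted are named.

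Among them were carriers that pass electrons to sterol and fatty acid enzymes. Cyb5r3, the cytochrome b5 reductase, rose by 0.51 (limma adjusted p = 0.00581) and Por, the cytochrome P450 reductase, by 0.43 (limma adjusted p = 0.00715). With the GC trend removed these were 0.33 and 0.23 and still passed, and Por missed the threshold with WT703 left out (0.37, adjusted p = 0.0567 by limma). Elovl6, which lengthens palmitate, rose by 0.47 (SE 0.05, limma adjusted p = 0.0024), with pair differences of 0.48, 0.45 and 0.47. Mid1ip1, which activates acetyl-CoA carboxylase, fell by 0.37 (limma adjusted p = 0.00538), or by 0.56 with the GC trend removed, and missed the threshold with WT703 left out (adjusted p = 0.0539 by limma). Cyb5r3 and Elovl6 passed in all 9 left-out runs.

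Less firm changes were found in 8 further genes, with limma adjusted p from 0.0107 to 0.0496. Stard3, a lysosomal sterol carrier, rose by 0.38. Soat2, a second cholesterol-esterifying enzyme, rose by 0.53 from low levels, Fads2, the delta-6 desaturase, by 0.27, and Acacb, the mitochondrial acetyl-CoA carboxylase, by 1.65 from a MIG mean of −2.71. Lipa, the lysosomal acid lipase, fell by 0.51, Ubxn8 by 0.42, Pdss1, of ubiquinone synthesis, by 0.32 and Nus1, of dolichol synthesis, by 0.22. Of the 9 left-out runs, Soat2 and Nus1 passed in 0, Acacb and Pdss1 in 1, Fads2 in 2, Stard3 and Lipa in 3 and Ubxn8 in 7. The runs that Lipa passed were those without replicate WT3 or either of its libraries, which are 1 comparison. Lipa, Stard3, Soat2, Fads2, Pdss1 and Nus1 missed the threshold with the GC trend removed. Acacb lay below 0 on the log2 scale in all 6 libraries.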

How the data were processed

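Messenger RNA of 6 libraries, 3 with MIG and 3 with MIG-Hhex, was available as 1 table of log2 values for 12161 genes. The authors deposited these log2 values, 1 column per library. Subread, featureCounts, limma and edgeR with the mouse build mm10 are named per the submitters' processing notes. Their versions, settings and normalization are not stated in any label used here. Across 11740 genes with a known exon length (GENCODE M21), the quantiles of the 6 libraries spanned 0.125 on average as deposited. They spanned 0.0381 once the log2 of exon length was added back, so the values were read as levels per length. Counts cannot be taken from such values, and depth is unknown.

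Groups were taken from the vector label. The values were fitted for all genes with limma 3.58.1 in R 4.3.3, with terms for flow cell and vector, eBayes with a mean-variance trend, two-sided tests and Benjamini-Hochberg adjustment over all 12161 genes (threshold 0.05). Intervals are 95% intervals of that fit. The fit was tested on simulated data with independent noise and with changes larger than those called for the members. That test does not bear on changes of the members' size or on the pairing of libraries. Replicate names paired the libraries: deviations from the group means correlated at 0.742 (WT3), 0.585 (WT691) and 0.656 (WT703). Between libraries of unlike names they correlated at −0.588 to 0.166. The WT3 libraries alone share flow cell C3RJFACXX, so for WT3 replicate and flow cell cannot be told apart. The labels give equal names without stating a shared animal. Alternatives were a replicate block, no flow cell term, a filter, a floor at 0, quantile normalization, no variance trend, flow cell C5LWPANXX alone, removal of the trend on transcript GC content, and leaving out libraries. Leaving out replicate WT3 or either of its libraries gives the same fitted differences as flow cell C5LWPANXX alone. Such runs are not separate tests in the counts of left-out runs. The members, other pathway genes and marker lists were chosen with earlier results of these data known. All 31 members are named, and other pathway genes where they passed the test, except some that are not reported here. Genes were matched by Entrez ID to RefSeq, GRCm38.p6 (12052 of 12161), and promoter sequences are RefSeq's for that build. The promoters of Insig1, Srebf2 and Idi1 were chosen for printing after their values were seen.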

Additional observations from a re-analysis of the deposited data

How the results depend on the processing

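No read depth is known, so no counting error could be set beside any value, and 3 libraries per vector with 3 residual degrees of freedom limit what the fit can resolve. Main values were 1148 genes higher, 1036 lower, 3 members higher and 1 lower. Without a flow cell term these became 119, 98, 0 and 0 (985, 872, 4 and 0 at an unadjusted p). On flow cell C5LWPANXX alone 698 genes were higher, 519 lower and 0 members lower (1 at an unadjusted p). With values below 0 raised to 0 there were 539 and 512 genes. Without a variance trend 638 genes and 0 members were lower (2 members at an unadjusted p). With the GC trend removed 5 members were higher (Msmo1, Insig1, Stard4, Npc1 and Scd2) and 0 lower (1 at an unadjusted p). Over all genes that fit called 1138 higher and 1293 lower. The replicate block gave 5 members higher, 1506 genes higher and 1473 lower, and it changed no other call of a member. Left-out replicates or libraries gave 355 to 835 genes higher, 270 to 634 lower, 0 to 3 members higher and 0 to 0 lower (1 to 2 at an unadjusted p), the 0 higher without replicate WT703 (5 at an unadjusted p). The cause of these differences was not tested, and left-out runs also hold fewer libraries.

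Log2 fold changes rose with transcript GC content (Spearman rho 0.307 over 11740 genes, which are not independent replicates). In pairs WT3, WT691 and WT703 rho was 0.217, 0.297 and 0.290. Removing this trend reversed the sign of members that had not passed: Hmgcs1 0.14, Mvk −0.14, Mvd −0.20, Cyp51 0.11, Tm7sf2 −0.040, Sc5d 0.081, Insig2 0.042, Soat1 0.11 and Fasn −0.19. Quantile normalization reversed Hmgcs1 (0.010), Cyp51 (0.025) and Scap (0.0031). Flow cell C5LWPANXX alone reversed Hmgcs1 (0.027), Mbtps1 (−0.047) and Fasn (−0.10). Left-out runs spanned 0 for Hmgcs1 (−0.030 to 0.027), Mvd (−0.082 to 0.12), Fdps (−0.045 to 0.21), Sqle (−0.013 to 0.046), Cyp51 (−0.0093 to 0.015), Scap (−0.047 to 0.049), Mbtps1 (−0.047 to 0.086), Soat1 (−0.13 to 0.12) and Fasn (−0.10 to 0.12). Insig1, Srebf2, Scd2 and Idi1 kept their sign under every alternative run. Idi1 missed the threshold without a variance trend (limma adjusted p = 0.0737). Scd2 also missed the threshold with the filter on the mean (limma adjusted p = 0.0509), the floor, quantile normalization and no variance trend (limma adjusted p from 0.0509 to 0.14).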

Other observations

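Fasn was the single member whose vector difference varied between flow cells at an unadjusted p below the threshold, in a limma fit with an interaction term that was added after the data were seen. The difference of differences was −0.42 (limma adjusted p = 0.952 over all genes). By this fit 0 genes passed after adjustment. At an unadjusted p below the threshold there were 1 of 31 members (3.23%) and 600 of 12161 genes (4.93%), so the members' share is not above that of all genes, and the contrast has 1 pair on C3RJFACXX. For Fasn the MIG-Hhex library was 0.32 higher in pair WT3, and 0.13 and 0.07 lower in pairs WT691 and WT703.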
